A study of Mus musculus with 6 samples.

Results

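The genes examined here are the potassium channel genes of 3 mouse endothelial cell lines, taken as every gene whose symbol starts with Kcn. On the arrays 95 probe sets carried exactly 1 such symbol, for 92 of the 19938 genes with a single symbol. Where a gene had several probe sets (3 of the 92), the one with the highest mean over the 6 arrays stood for it. The 92 comprise 89 genes of channel subunits and their regulators and 3 opposite-strand transcripts named after a channel gene. Kcnj2 and the members described by level were chosen by their measured log2 signal in the lines, so those levels and the Kcnj2 differences are a description and carry no test.

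The lines, labelled N, VE and VE+N, are endothelial cells made from mouse embryonic stem cells that carry N-cadherin, VE-cadherin or the pair together. Both cadherins are adhesion molecules at contacts between endothelial cells, and the study compared what each does to gene expression. All 3 lines had the same treatment: seeding at 50000 cells per square centimetre, 72 h of culture into long confluence, and 18 to 20 h in serum-free medium with 1% albumin. Each line gave 2 RNA extracts, each on 1 Affymetrix Mouse Gene 1.0 ST array. The titles call them biological replicates, but whether each extract had its own culture is not given, so p-values measure only the spread between these samples. With 1 line for each cadherin state, a cadherin effect and any other difference between the lines cannot be told apart.

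The arrays had medians between 4.85 and 4.91 on the log2 scale over all 35556 probe sets. The N-cadherin gene Cdh2 was higher in N (7.66 and 7.67) and VE+N (6.69 and 6.70) than in VE (5.80 and 5.93). The labels give no order between N and VE+N, and the VE mean still lay 0.96 above the array median. The VE-cadherin gene Cdh5 (7.26 and 7.30 in N, 7.05 and 6.83 in VE, 7.05 and 7.16 in VE+N) was called in no comparison. All directions below therefore rest on the labels. All 10 endothelial markers lay above the median on every array, and all 5 pluripotency markers below it. The endothelial markers were not level over the lines. Of the 10, 1 was called higher and 2 lower in VE minus N. In VE+N minus N it was 4 and 0, and in VE+N minus VE 5 and 0. These are 30%, 40% and 50%, beside 15.4%, 19.1% and 10.1% of all genes. All 10 had a mean over the 6 arrays above the median gene mean of 5.54. Among all genes at that level 24.4%, 31% and 15.7% were called. Cldn5 differed most, at 6.14 and 6.34 in N, 9.26 and 9.26 in VE and 11.55 and 11.81 in VE+N.

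Potassium channels let potassium leave or enter the cell down its gradient and so set the membrane potential. In endothelium a more negative potential increases the driving force for calcium entry and, through gap junctions, relaxes the muscle of the vessel wall. Inward rectifiers and background leak channels hold the resting potential, calcium-activated channels respond to vasodilators, and voltage-gated channels with their accessory subunits are best known from nerve and muscle.

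Most potassium channel genes gave a low signal in these cells. Of the 92, 60 lay below the array median in every line and 32 above it in at least 1. A line mean at least 1 log2 unit above the median was reached by 9 genes: Kcnq1, Kcnj2, Kcnh2, Kcne3, Kcnk6, Kcnk10, Kcnk3, the opposite-strand transcript Kcnd3os and Kcng2. In the N line all 9 passed that level, in VE 8 and in VE+N 7. The lowest members inside the threshold were Kcng2 at 1.46, Kcnd3os at 2.00 and Kcnk3 at 2.04 above the median of their highest line. Just outside lay Kcnab2 at 0.95, Kcnn1 at 0.90 and Kcnk15 at 0.80. Probes differ in how strongly they bind, so the order of signals between genes is not an order of transcript amounts, and the values have no detection call.

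Calls were made with limma over all 19938 genes, at an adjusted p under 0.05. In VE minus N, 9 of 92 members were called, 3 higher and 6 lower in VE, against 15.4% of all genes (8.46% higher, 6.99% lower). In VE+N minus N, 9 were called, 3 higher and 6 lower in VE+N, against 19.1% of all genes (10.2% higher, 8.91% lower). Without Kcnj2, which was chosen with its pattern known, both counts were 8 of 91. The median difference over the 92 was −0.0366 in VE minus N and −0.0434 in VE+N minus N, beside −0.0215 and −0.00449 over all genes. These comparisons share the N arrays.

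In VE+N minus VE, 6 of 92 members were called, 2 higher and 4 lower in VE+N, against 10.1% of all genes (4.29% higher, 5.84% lower), and 5 of 91 without Kcnj2. By the methods' analysis of variance with Benjamini-Hochberg adjustment, 1 member was called. With median centring of the arrays the split was 4 higher and 4 lower, and without VE replicate 1 or VE replicate 2 only 3 members were called. The share of all genes called at least once is not given here, so such counts, also by role below, have no background beside them. Over the 3 comparisons 10 members were called at least once and 82 never. Among those 82 the highest and lowest line means lay a median of 0.19 apart and at most 0.53 apart (Kcnj12). Changes over 2-fold were called for 5 members in VE minus N, against 3.81% of all genes, for 4 in VE+N minus N, against 4.6%, and for 1 in VE+N minus VE, against 2.52%. Each of these counts includes Kcnj2, whose differences carry no test, and in VE+N minus VE it was the only such member.

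Most members were dim, so the counts were also set beside genes of like signal. Of the 10 members whose 6-array mean exceeded the median gene mean of 5.54, 3 were called in VE minus N, 4 in VE+N minus N and 4 in VE+N minus VE. Without Kcnj2, which is among the 10 through its N and VE signal, it was 2, 3 and 3 of 9. Among all genes at that level 24.4%, 31% and 15.7% were called. Of the 82 dimmer members 6, 5 and 2 were called, or 7.32%, 6.10% and 2.44%, near the 6.47%, 7.09% and 4.57% of all dimmer genes. Adjusted p-values are printed below only for the 10 brighter members other than Kcnj2. All other members are given by values and by whether the fit called them.

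**Figure D1:**
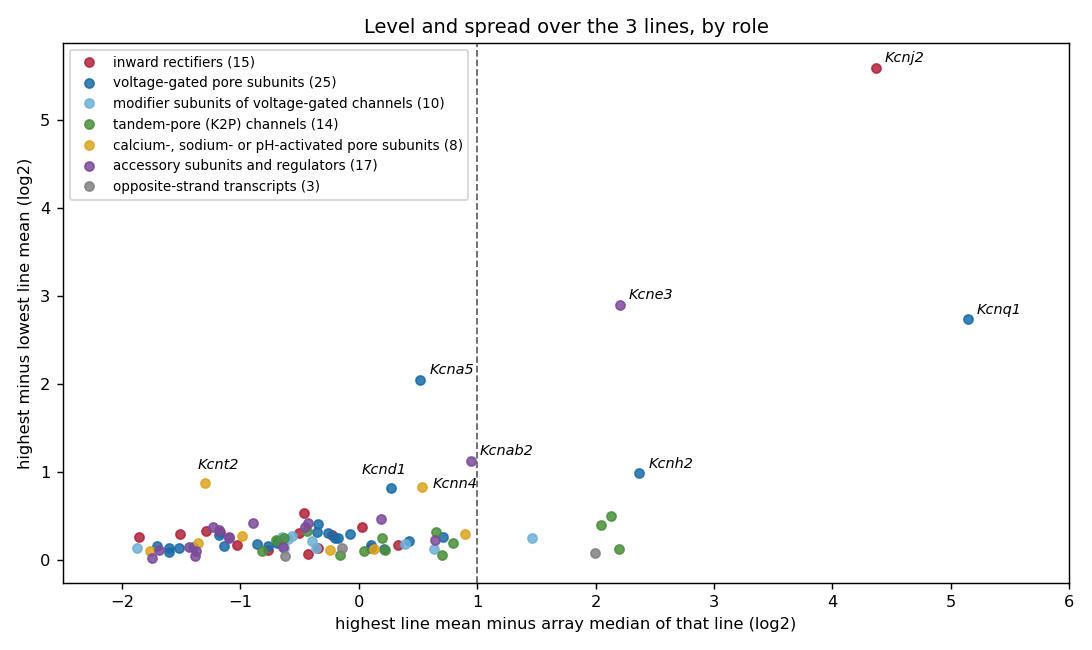
For each of the 92 genes, the horizontal axis gives its highest line mean minus the array median of that line and the vertical axis the distance between its highest and lowest line means, both in log2 units. Colours mark the role of the gene and the dashed line the level of 1 log2 unit. Most points lie low on both axes, and Kcnj2 (5.59), Kcne3 (2.90), Kcnq1 (2.73) and Kcna5 (2.05) have the widest spread over the lines.

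Among the inward rectifiers, channels that pass potassium more readily into the cell than out of it, Kcnj2 stood out. It encodes the strong inward rectifier that carries the main resting potassium current of many endothelial cells. Its log2 signal was 9.20 and 9.24 on the N arrays, 6.92 and 6.75 on the VE arrays and 3.48 and 3.77 on the VE+N arrays. The 3 lines did not overlap: N was highest, VE lay between and VE+N was below the array median. On the N arrays 91.1% and 91.3% of all probe sets were dimmer than Kcnj2, on the VE arrays 70.6% and 69.1%, and on the VE+N arrays 27.4% and 31.3%.

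The Kcnj2 difference was −2.38 ± 0.125 (SE, n = 2 arrays a line) for VE minus N, −5.59 ± 0.125 for VE+N minus N and −3.21 ± 0.125 for VE+N minus VE. With VE+N near the dim end of the array and its distance from background unknown, no ratio is given. Leaving out either VE+N array moved the VE+N minus N difference to −5.45 or −5.73.

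No other inward rectifier was called in any comparison (14 of 15 members). Kcnj8 and Kcnj11, the pore subunits of ATP-sensitive channels, stayed between 4.15 and 5.03 on every array. Kcnj8 had values of 4.47 and 4.78 in N, 4.55 and 4.26 in VE and 4.56 and 4.15 in VE+N, so the lines overlapped. Kcnj12, a close relative of Kcnj2, was 3.69 and 4.12 in N, 3.97 and 3.83 in VE and 4.28 and 4.58 in VE+N. It was highest in VE+N, where Kcnj2 was lowest, by 0.53 ± 0.165 over N, and that difference was not called. Kcnj16, the protein-coding neighbour of Kcnj2 on chromosome 11, lay between 3.25 and 3.85 on all arrays and was not called.

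**Figure D2:**
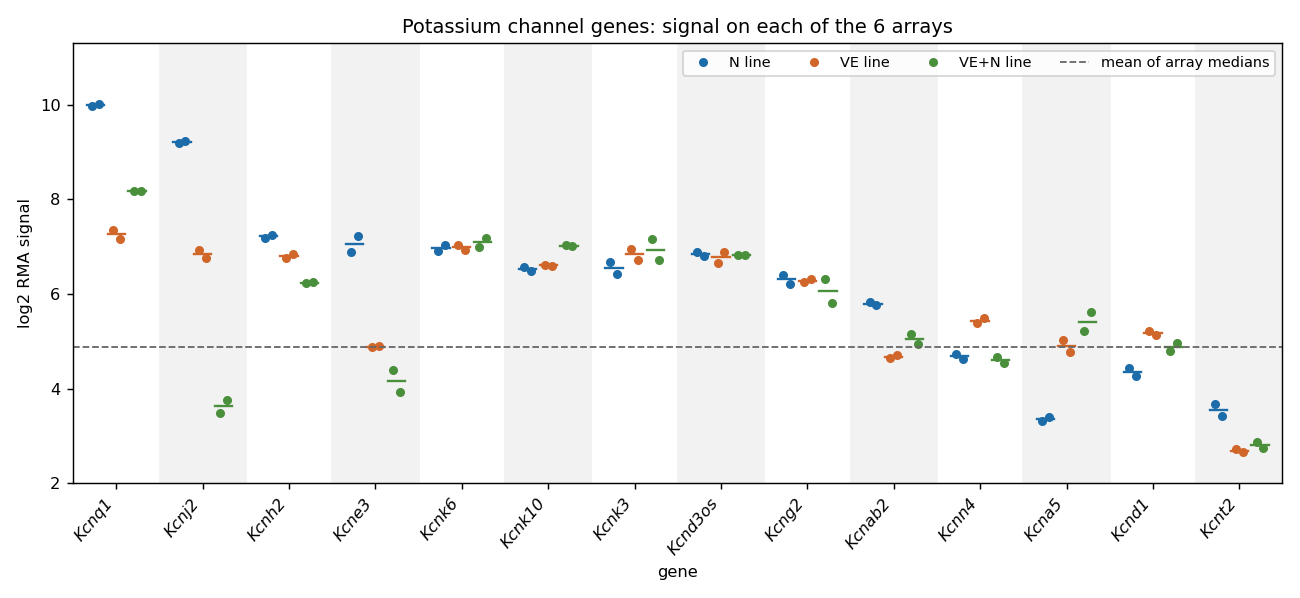
Log2 RMA signal (vertical axis) of 14 potassium channel genes (horizontal axis) on the 2 arrays of each line, with each array as a point and the line mean as a bar. The dashed line is the mean of the 6 array medians. Kcnj2 steps down from N (9.20 and 9.24) through VE to VE+N (3.48 and 3.77), Kcna5 goes the other way, and Kcnk6 and Kcnd3os are level.

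The voltage-gated pore subunits open when the membrane depolarises, and 4 of their 25 measured members were called at least once. Kcnq1 encodes a channel known for the repolarising current of heart muscle and for potassium recycling in epithelia. It had a signal of 9.97 and 10.01 in N, 7.35 and 7.17 in VE and 8.19 and 8.17 in VE+N. All 3 lines were separate, with VE lowest. VE lay below N by −2.73 ± 0.105 log2 units (SE, limma adjusted p = 3.48e-06), and VE+N lay below N by −1.82 ± 0.105 (limma adjusted p = 1.37e-05). VE+N exceeded VE by 0.92 ± 0.105 (adjusted p = 0.00123), the opposite direction to Kcnj2.

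Kcnh2 encodes the channel of the rapid delayed rectifier current of heart muscle. It was 7.19 and 7.25 in N, 6.76 and 6.84 in VE and 6.22 and 6.26 in VE+N, again without overlap. It fell by 0.98 ± 0.0967 (SE) in VE+N against N (limma adjusted p = 0.00027) and by 0.56 ± 0.0967 in VE+N against VE (adjusted p = 0.00882). The smaller difference between VE and N, −0.42 ± 0.0967 (adjusted p = 0.0228), lost its call without any 1 of the 4 N and VE arrays, at −0.38 to −0.46 (adjusted p = 0.0826 to 0.162). With VE replicate 1 left out, VE+N minus VE was −0.60 and no longer called (limma adjusted p = 0.0511), and with VE replicate 2 left out it was −0.52 (limma adjusted p = 0.0789).

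Kcna5 and Kcnd1 went the other way. Kcna5, a subunit of ultrarapid and vascular delayed rectifier currents, was 3.32 and 3.41 in N, 5.03 and 4.77 in VE and 5.21 and 5.61 in VE+N. The N arrays were thus below the array median and apart from all others. The differences were 1.54 ± 0.153 for VE minus N and 2.05 ± 0.153 for VE+N minus N, both called. VE+N minus VE, 0.51 ± 0.153, was not called, but was with median centring (0.60) and without VE+N replicate 1 (0.71). Its chromosome 6 neighbours Kcna1 and Kcna6, members of the same subfamily, were called in no comparison and lay between 3.93 and 4.77 on the 6 arrays.

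Kcnd1, a subunit of fast inactivating A-type currents, was 4.44 and 4.27 in N, 5.22 and 5.12 in VE and 4.80 and 4.97 in VE+N. VE minus N was 0.81 ± 0.115 and VE+N minus N 0.53 ± 0.115, both called. The second call was lost without N replicate 2 (0.44) or VE+N replicate 2 (0.44). The opposite-strand transcript Kcnd3os, which is not a channel subunit, was flat at 6.66 to 6.88 on all arrays. Kcnd3 itself lay below the array median in every line and was not called. It is 1 of the 21 voltage-gated pore genes that were not called, whose line means lay at most 0.41 apart.

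The modifier subunits, which form no channel alone and alter voltage-gated partners, gave no call among 10 genes. The highest in signal was Kcng2, with 6.41 and 6.21 in N, 6.24 and 6.32 in VE and 6.32 and 5.82 in VE+N. The lines overlapped. Its VE+N minus N difference of −0.24 had a 95% interval from −0.63 to 0.14 (limma adjusted p = 0.395), and it was called without VE+N replicate 1, at −0.49.

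Accessory subunits change the gating or trafficking of the pores they join, and 2 of 17 were called at least once. Kcne3 encodes a single-pass subunit known to hold Kcnq1 channels open. It was 6.90 and 7.22 in N, 4.88 and 4.89 in VE and 4.39 and 3.92 in VE+N, so that it was clearly above the array median in N alone. It passed the level threshold through N alone, so VE minus N, −2.17 ± 0.171, and VE+N minus N, −2.90 ± 0.171, are a description. VE+N minus VE, −0.73 ± 0.171, was called, but not without VE replicate 1 (−0.73), VE replicate 2 (−0.72) or VE+N replicate 2 (−0.49). Kcne3 was thus lowest in VE+N, whereas Kcnq1 was lowest in VE.

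Kcnab2, a cytoplasmic beta subunit of the channels to which Kcna5 belongs, was 5.83 and 5.77 in N, 4.64 and 4.71 in VE and 5.15 and 4.94 in VE+N. It was called lower in VE than in N by −1.12 ± 0.109 and in VE+N than in N by −0.75 ± 0.109. VE+N minus VE, 0.37 ± 0.109, was not called, but was with median centring (0.46) and repeated quantile normalization (0.44). The other 15 accessory genes, among them the remaining Kcne genes, the beta subunits of large-conductance calcium-activated channels and the Kcnip calcium sensors, were not called.

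**Figure D3:**
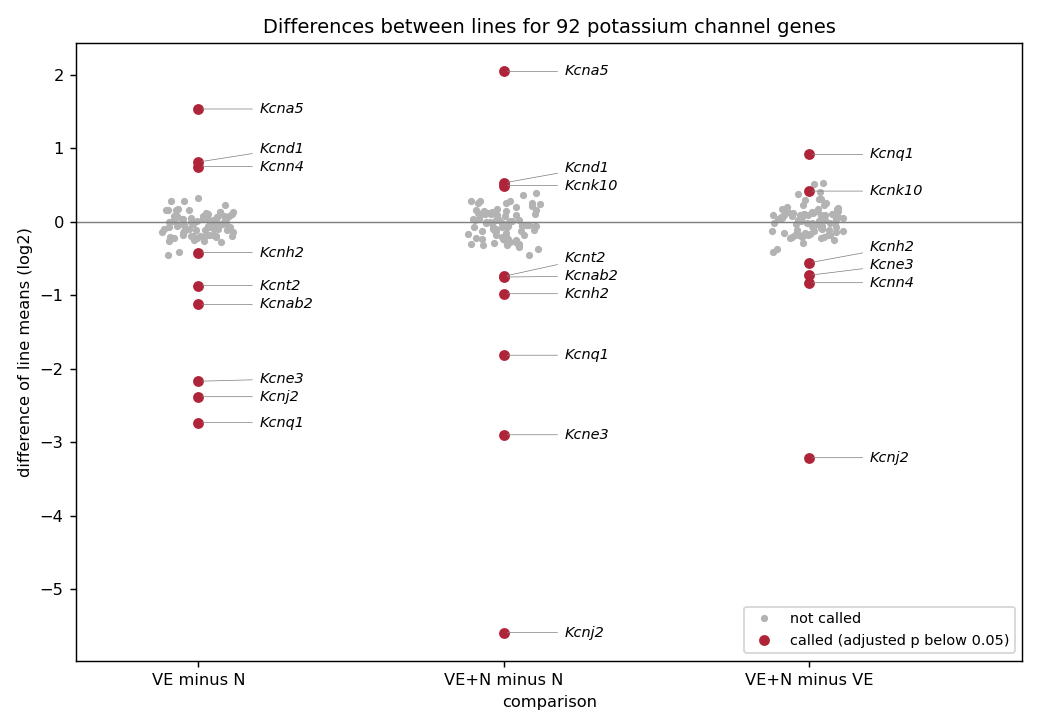
Difference of line means in log2 units (vertical axis) of the 92 genes in each of 3 comparisons (horizontal axis). Red points with names are genes called at adjusted p below 0.05 and grey points, spread sideways for visibility, are not called. Kcnj2 reaches −5.59 in VE+N minus N, and the genes that were not called stay within 0.53 of zero. The comparisons share arrays pairwise.

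K2P channels, whose subunits carry a tandem pair of pore domains, pass background leak current, and 3 of the 9 members with a clear signal belong to them. Kcnk6 was 6.91 and 7.04 in N, 7.04 and 6.94 in VE and 6.99 and 7.19 in VE+N, and the lines overlapped. Its differences were small, with 95% intervals of −0.25 to 0.28 for VE minus N (limma adjusted p = 0.952), −0.15 to 0.38 for VE+N minus N (adjusted p = 0.578) and −0.16 to 0.36 for VE+N minus VE (adjusted p = 0.679). Kcnk3, an acid-sensitive leak channel, spread more between arrays: 6.68 and 6.42 in N, 6.95 and 6.73 in VE and 7.16 and 6.71 in VE+N. Its VE+N minus N difference of 0.39 ± 0.169 was not called (adjusted p = 0.168).

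Kcnk10, a mechanically and lipid-gated leak channel, had small but tight differences. It was 6.56 and 6.50 in N, 6.62 and 6.59 in VE and 7.03 and 7.02 in VE+N, with VE+N apart from the others. VE+N exceeded N by 0.49 ± 0.0952 (SE, limma adjusted p = 0.00843) and VE by 0.42 ± 0.0952 (adjusted p = 0.0297). The first call was lost without N replicate 2 (0.46, adjusted p = 0.0777). The second was lost whichever of the 6 arrays was left out, at 0.40 to 0.43 (adjusted p = 0.0637 to 0.156). The other 13 K2P genes were not called.

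Channels gated by intracellular calcium, sodium or pH gave 2 called genes among 8. Kcnn4 encodes the intermediate-conductance calcium-activated channel known for endothelium-dependent hyperpolarisation. It was 4.74 and 4.62 in N, 5.38 and 5.49 in VE and 4.67 and 4.54 in VE+N. Only the VE line was above the array median. The differences of 0.75 ± 0.107 for VE minus N and −0.83 ± 0.107 for VE+N minus VE were called, and −0.08 ± 0.107 for VE+N minus N was not. The small-conductance channel Kcnn3, its usual endothelial partner, ranged from 4.72 to 5.06 over the 6 arrays with the lines overlapping and was not called.

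Kcnt2, a sodium-activated channel, was the only called member below the array median in every line, at 3.67 and 3.43 in N, 2.72 and 2.65 in VE and 2.87 and 2.75 in VE+N. VE minus N was −0.87 ± 0.117 and VE+N minus N −0.74 ± 0.117, both called. Kcnma1, the pore of the large-conductance calcium-activated channel, stayed between 3.47 and 3.88 and was not called.

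Counted by arrays alone, 39 of 92 members had no overlap between VE and N (12 higher, 27 lower in VE), against 57.3% of all genes (26.0% higher, 31.2% lower). For VE+N and N the count was 36 (16 higher, 20 lower), against 55.1% of all genes (27.6% higher, 27.5% lower). For VE+N and VE it was 36 (18 higher, 18 lower), against 49.5% of all genes (28.5% higher, 21.0% lower). The highest line mean fell in N for 40 members, in VE for 21 and in VE+N for 31. As shares, 43.5% of the members were highest in N, 22.8% in VE and 33.7% in VE+N, beside 38.4%, 24.7% and 36.9% of all genes.

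Of the 10 called members, 8 had a sequence upstream of an annotated start in the reference used, and Kcnq1 and Kcnd1 had none. Those of Kcnab2, Kcnk10, Kcnn4 and Kcnt2 are not printed. The sequences upstream of the start are shown for Kcnj2, Kcnh2 and Kcne3, highest in N, and for Kcna5, lowest in N. Each is the 250 bases before an annotated start, read from RefSeq on GRCm38.p6, 5′ to 3′ on the strand of the gene. Kcne3 has a pair of annotated starts. Capitals mark matches to any of 5 motifs on either strand. The GC box was searched as GGGCGG, and the CCAAT box by the letters of its name. The E-box searched for was CACGTG, the TATA box was taken to be TATAAA, and the forkhead element was TGTTTAC. Matches that overlap were all kept.
Kcnj2, chr11:111065914-111066163, plus strand: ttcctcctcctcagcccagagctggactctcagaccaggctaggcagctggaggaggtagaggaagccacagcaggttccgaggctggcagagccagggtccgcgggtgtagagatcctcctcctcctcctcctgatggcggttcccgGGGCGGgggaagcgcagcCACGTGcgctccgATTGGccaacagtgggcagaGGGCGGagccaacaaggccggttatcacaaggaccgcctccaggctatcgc
Kcnh2, chr5:24329592-24329841, minus strand: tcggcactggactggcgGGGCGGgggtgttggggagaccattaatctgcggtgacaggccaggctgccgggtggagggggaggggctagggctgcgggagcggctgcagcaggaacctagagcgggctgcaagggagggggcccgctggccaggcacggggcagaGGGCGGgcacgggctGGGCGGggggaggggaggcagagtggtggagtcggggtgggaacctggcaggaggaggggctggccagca
Kcne3, chr7:100176420-100176669, plus strand: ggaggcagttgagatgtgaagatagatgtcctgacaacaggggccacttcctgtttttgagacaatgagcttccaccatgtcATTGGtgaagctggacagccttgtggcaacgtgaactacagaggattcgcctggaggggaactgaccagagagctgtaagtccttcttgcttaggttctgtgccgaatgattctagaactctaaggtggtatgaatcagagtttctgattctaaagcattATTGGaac
Kcne3, chr7:100178433-100178682, plus strand: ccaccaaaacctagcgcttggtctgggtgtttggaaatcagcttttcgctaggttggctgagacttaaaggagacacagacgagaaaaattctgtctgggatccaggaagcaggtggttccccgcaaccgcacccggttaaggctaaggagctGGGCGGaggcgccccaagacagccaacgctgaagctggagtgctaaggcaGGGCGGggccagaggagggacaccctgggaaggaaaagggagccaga
Kcna5, chr6:126535556-126535805, minus strand: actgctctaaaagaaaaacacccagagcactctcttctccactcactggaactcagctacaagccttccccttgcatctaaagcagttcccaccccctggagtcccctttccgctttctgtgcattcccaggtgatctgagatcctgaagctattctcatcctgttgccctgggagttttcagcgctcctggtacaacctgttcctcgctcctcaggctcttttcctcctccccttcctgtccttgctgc

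The Kcnj2 window held 2 GC boxes, 1 CCAAT box, 1 E-box and 14 CpG dinucleotides. Kcnh2 held 3 GC boxes and 14 CpG. The upstream Kcne3 window held 2 CCAAT boxes and 3 CpG, and the downstream one 2 GC boxes and 10 CpG. The Kcna5 window held none of the 5 motifs and 3 CpG. Over all 32851 windows of that length, the median was 6 CpG, 32.7% held a GC box, 33.8% a CCAAT box, 6.02% an E-box, 12.4% a TATA box and 3.17% a forkhead element. Of the 95 windows of 70 potassium channel genes, 44.2% held a GC box, 29.5% a CCAAT box, 6.32% an E-box, 3.16% a TATA box and 0 the forkhead element. A GC box lay in 6 of the 12 windows of the 8 called members that had one. It lay in 4 of the 8 windows of members called lower than N in both VE and VE+N. The latter windows belong to Kcnab2, Kcne3, Kcnh2, Kcnj2 and Kcnt2. Kcnab2, Kcne3 and Kcnk10 have several windows each, so windows are not separate genes. Kcnj2, chosen by its values, is among those with a GC box. A match is a description of letters in this window and not a binding site.

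Potassium channels work with pumps, cotransporters, calcium entry channels and the lipid phosphatidylinositol bisphosphate (PIP2), which inward rectifiers and Kcnq1 channels need to open. Of 86 listed partner genes 77 were measured. In VE minus N 10 were called higher and 10 lower, or 26.0% of the list, with a median difference of 0.01. In VE+N minus N it was 16 higher and 11 lower (35.1%, median −0.03) and in VE+N minus VE 10 higher and 5 lower (19.5%, median 0.02). The shares over all genes were 15.4%, 19.1% and 10.1%, and over genes above the median gene mean, where 43 of the 77 lay, 24.4%, 31% and 15.7%. Without N replicate 2 the VE minus N count was 13, and by the methods' analysis of variance with Benjamini-Hochberg adjustment the VE+N minus VE count was 1.

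Of the sulfonylurea receptors, which complete ATP-sensitive channels, Abcc9 changed and its pore partner Kcnj8, its neighbour on chromosome 6, was not called. Abcc9 was 6.42 and 6.22 in N, 4.38 and 4.28 in VE and 4.44 and 4.25 in VE+N, with N apart from the rest. It was called lower than in N by −1.99 ± 0.118 (SE) in VE and by −1.98 ± 0.118 in VE+N. Abcc9 is also 1 of the 8 mural cell markers given below and is counted in both lists. None of 8 other auxiliary subunit genes was called. Of 7 pacemaker and cyclic nucleotide gated channel genes 1 was called, the pacemaker gene Hcn2, higher by 1.01 ± 0.117 in VE and 0.97 ± 0.117 in VE+N than in N.

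The sodium-potassium pump builds the gradient that the channels use, and of its 9 measured subunit genes 1 was called higher and 2 lower in VE minus N, 0 and 3 in VE+N minus N, and 1 and 2 in VE+N minus VE. That is 33.3% in each, beside 15.4%, 19.1% and 10.1% of all genes and 24.4%, 31% and 15.7% of the brighter ones. Its beta subunit Atp1b1 was 6.27 and 6.19 in N, 8.95 and 8.76 in VE and 6.20 and 6.41 in VE+N. VE was thus apart, by 2.62 ± 0.12 (SE) over N and with VE+N lower than VE by −2.55 ± 0.12. Atp1b2 was lower in VE+N by −1.15 ± 0.138 against N and −1.35 ± 0.138 against VE. The pump regulator Fxyd6 was 9.14 and 9.01 in N, 6.38 and 6.22 in VE and 6.90 and 6.89 in VE+N, and fell by 2.77 ± 0.106 in VE and by 2.18 ± 0.106 in VE+N.

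Among 12 cation-chloride cotransporter and kinase genes 3 were higher and 2 lower in both VE minus N and VE+N minus N, which share the N arrays, and 2 and 0 in VE+N minus VE. That is 41.7%, 41.7% and 16.7%, beside 15.4%, 19.1% and 10.1% of all genes and 24.4%, 31% and 15.7% of the brighter ones. Slc12a7, a potassium-chloride cotransporter that takes potassium out of the cell, was 6.68 and 6.55 in N, 9.02 and 8.93 in VE and 9.64 and 9.67 in VE+N. It rose by 2.37 ± 0.101 (SE) in VE and by 3.04 ± 0.101 in VE+N against N. Slc12a2, which brings sodium, potassium and chloride in, was lower by −0.78 ± 0.108 and −0.97 ± 0.108 in the same comparisons. The kinase gene Stk39, whose product regulates both, rose by 0.71 ± 0.105 and 1.46 ± 0.105.

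**Figure D4:**
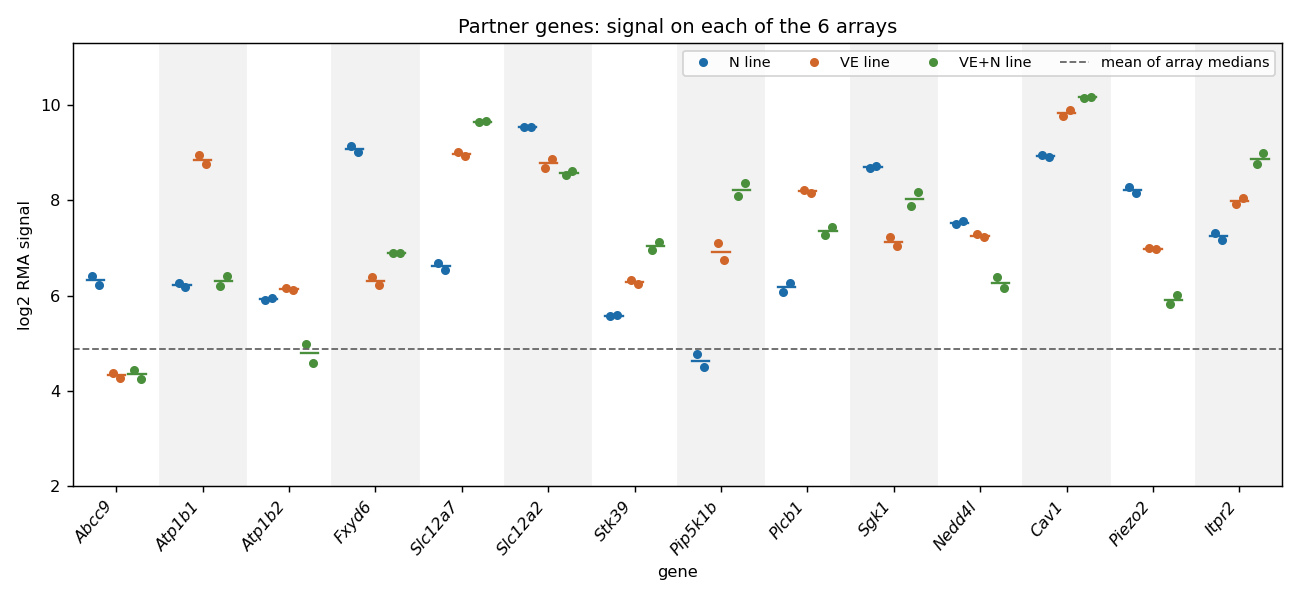
Log2 RMA signal (vertical axis) of 14 partner genes (horizontal axis) on the 2 arrays of each line, with each array as a point, the line mean as a bar and the mean of the 6 array medians dashed. Abcc9 and Fxyd6 are highest in N, Slc12a7 and Pip5k1b lowest in N, and Atp1b1 (8.95 and 8.76) highest in VE.

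Of 18 genes of PIP2 supply and channel trafficking 4 were higher and 2 lower in VE minus N, 7 and 4 in VE+N minus N, and 3 and 2 in VE+N minus VE. That is 33.3%, 61.1% and 27.8%, beside 15.4%, 19.1% and 10.1% of all genes and 24.4%, 31% and 15.7% of the brighter ones. Pip5k1b, a kinase that makes PIP2, was 4.76 and 4.50 in N, 7.11 and 6.74 in VE and 8.09 and 8.36 in VE+N. It rose by 2.29 ± 0.162 (SE) in VE and by 3.59 ± 0.162 in VE+N against N. Plcb1, a phospholipase that breaks PIP2 down, rose by 2.02 ± 0.115 and 1.19 ± 0.115. Sgk1, a kinase that raises the surface density of several channels, fell by 1.56 ± 0.128 in VE and by 0.67 ± 0.128 in VE+N. Nedd4l, a ubiquitin ligase that removes channels including Kcnq1 from the membrane, was lower in VE+N by −1.26 ± 0.112 against N and −0.99 ± 0.112 against VE. Cav1, the caveolar scaffold, rose by 0.91 ± 0.1 and 1.24 ± 0.1 against N.

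Of 21 calcium entry and store genes 1 was higher and 3 lower in VE minus N, 5 and 1 in VE+N minus N, and 4 and 1 in VE+N minus VE. That is 19.0%, 28.6% and 23.8%, beside 15.4%, 19.1% and 10.1% of all genes and 24.4%, 31% and 15.7% of the brighter ones. Piezo2, a mechanically gated cation channel, was 8.27 and 8.16 in N, 6.99 ± 0.02 (SD, n = 2) in VE and 5.82 and 6.00 in VE+N. It had the same order of lines as Kcnj2, with −1.23 ± 0.108 (SE) for VE minus N, −2.30 ± 0.108 for VE+N minus N and −1.07 ± 0.108 for VE+N minus VE. The calcium store channel Itpr2 rose by 0.74 ± 0.12 in VE and by 1.63 ± 0.12 in VE+N against N.

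Other cell types that could carry these channels were read from marker lists. Of 8 mural cell markers 0 were higher and 3 lower in VE minus N, 0 and 6 in VE+N minus N, and 0 and 3 in VE+N minus VE. These counts are 37.5%, 75% and 37.5%, beside 15.4%, 19.1% and 10.1% of all genes, and the first pair includes Abcc9. The summed linear signal of the 8 was 945 to 975 in N, 612 to 745 in VE and 168 to 182 in VE+N. The sum had the order of Kcnj2, with Pdgfrb its brightest marker in N and VE. Pdgfrb, Acta2, Des, Cspg4 and Rgs5 had that order of line means, Rgs5 by little. Notch3, Myh11 (4.65 in N, 4.74 in VE, 4.75 in VE+N) and Abcc9 (4.33 in VE, 4.34 in VE+N) did not. Below the array median lay 3 of the 8 in N, 4 in VE, and 6 and 8 on the VE+N arrays. Pdgfrb was 8.94 and 9.13 in N, 8.30 and 8.67 in VE and 4.19 and 4.18 in VE+N. Acta2 was 7.24 and 6.98 in N, 5.82 and 6.25 in VE and 4.87 and 4.82 in VE+N. Notch3 was 6.78 and 6.83 in N, 7.06 and 7.19 in VE and 4.76 and 4.61 in VE+N. These 3 were thus above the median in N and VE and below it in VE+N, whereas Rgs5 (2.78 to 3.01) and Cspg4 (4.22 to 4.80) lay below it on every array. Of 6 haematopoietic markers only Cd68 was called, at 11.55 and 11.56 in N, 10.19 and 9.80 in VE and 8.62 and 8.74 in VE+N, while Ptprc lay between 2.53 and 2.96. Neuronal markers gave 2 higher and 0 lower of 7 in VE minus N, 1 and 1 in VE+N minus N, and 0 and 2 in VE+N minus VE. That is 28.6% in each comparison. In each, 16.7% of the haematopoietic and 14.3% of the muscle markers were called, beside 15.4%, 19.1% and 10.1% of all genes. Of 7 muscle markers only Tnnt2 was called, at 6.37 and 6.35 in N, 6.84 and 6.84 in VE and 5.26 and 5.36 in VE+N. The part of these in the differences of Kcnj2 and the other members was not tested, and fewer cells with a gene cannot be told apart from less RNA per cell.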

How the data were processed

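Gene expression was measured on 6 arrays, 2 for each of the lines N, VE and VE+N, named in the sample titles, from 150 ng of RNA each. The authors ran RMA in Partek 6.3, per the submitters' design text and processing notes. The deposited values are on a log2 scale, judged from their range. Genome build and probe positions are not given in the sources used here. No read depth applies, and the number of arrays limits the precision.

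Of 35556 probe sets 21789 carried 1 symbol, 1621 several and 12146 none in the platform annotation, which gave 19938 genes, each at its brightest probe set. No signal filter was applied. Line means were fitted with limma 3.58.1 in R 4.3.3 over all 6 arrays (3 residual and 4.89 prior degrees of freedom), with Benjamini-Hochberg adjustment over all genes in each comparison; calls are adjusted p below 0.05. Values after ± are SE. The fit was tested on 10 simulated sets in which 200 of 19938 genes were changed by 1 log2 unit in VE minus N: 99.5% were recovered, with 6.9% false calls. The noise was independent and normal with the fitted SDs, so the recovery does not cover smaller changes or arrays that share a culture. Roles follow the symbol; named genes are Kcnj2, members at least 1 log2 unit above the median in a line, up to 5 called rises and falls in each comparison, and up to 4 called genes of each partner list, of which not all are described. Members outside this rule (Kcnj8, Kcnj11, Kcnj12, Kcnj16, Kcna1, Kcna6, Kcnd3, Kcnma1, Kcnn3) were named after their values were seen. The members and lists were chosen with earlier results of these data known. Alternatives were 4 arrays only, a replicate block, array weights, a trended robust prior, median centring, quantile normalization, removal of the dimmest 25% or 50% of genes, other probe set rules, another reference median, updated symbols, the methods' analysis of variance, other thresholds, and leaving out each array, where the lone array of a line is assumed to vary like the others.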

Additional observations from a re-analysis of the deposited data

How the results depend on the processing

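The 21 called differences of named members other than Kcnj2 were recomputed under 10 settings: median centring, quantile normalization, the mean of a gene's probe sets, the replicate block and leaving out each of the 6 arrays. All 210 values kept their direction, and 18, in 6 differences, lost the call. The other alternatives, the analysis of variance among them, were run on counts of calls. Called members numbered 9 in VE minus N, 9 in VE+N minus N and 6 in VE+N minus VE. In that order they numbered 4, 5 and 4 without the dimmest 50% of genes, which left 10 members. With a change over 2-fold also required it was 5, 4 and 1, each with Kcnj2 and the last Kcnj2 alone. The same counts came by the methods' analysis of variance at unadjusted p of 0.05 and over 2-fold, an alternative chosen after seeing the data. That analysis with Benjamini-Hochberg gave 6, 7 and 1. Leaving out 1 array gave 8 to 10, 8 to 13 and 3 to 6. Median centring gave 12, 12 and 8, and lowered the median of all genes in VE minus N by 0.108. The replicate block gave 11, 12 and 6. The titles share replicate numbers, and the differences between replicates 1 and 2 correlated little between lines (−0.00498, 0.123 and 0.0688). Such correlations over all genes cannot exclude a weak effect shared by same-numbered arrays, so whether the numbers pair the arrays was not settled.

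Kcnj2 differences without 1 array ran from −2.47 to −2.30 for VE minus N, −5.73 to −5.45 for VE+N minus N and −3.35 to −3.07 for VE+N minus VE. Members past the level threshold numbered 9, and 19 at 0.5 or 7 at 2 log2 units.

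Differences that were not called changed sign as follows. In VE minus N, Kcnk10 was −0.033 with median centring and −0.0075 with quantile normalization, and Kcnk6 −0.092 and −0.038. Leaving out single arrays gave, in VE minus N, −0.18 to 0.036 for Kcnd3os, −0.13 to 0.069 for Kcng2 and −0.048 to 0.081 for Kcnk6. In VE+N minus N it gave −0.052 to 0.017 for Kcnd3os and −0.49 to 0.0085 for Kcng2. In VE+N minus VE it gave −0.053 to 0.17 for Kcnd3os, −0.46 to 0.038 for Kcng2, −0.12 to 0.32 for Kcnk3 and −0.0028 to 0.20 for Kcnk6. Called partner genes, whose alternatives were added after seeing the data, numbered 13 without N replicate 2 in VE minus N (20 in the main analysis) and 1 by the methods' analysis of variance in VE+N minus VE (15). The causes were not tested.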
